A study of Mus musculus with 12 samples.

Results

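Enzymes of the families that add acetyl groups to histones or remove them, with a small set of reader proteins, were examined as 32 genes of the 57180 in the deposited tables. Not all of these enzymes act mainly on histones. Sirt3, Sirt4 and Sirt5 are mitochondrial, and Hdac6, Hdac10, Hdac11 and Sirt2 are described below by other substrates. Members were chosen by gene symbol, with earlier results of these data known. All 32 passed the filter of at least 10 counts over all libraries, as did 25446 genes in total. The 32 comprise 11 lysine acetyltransferases, 11 zinc-dependent deacetylases (HDACs), 7 sirtuins and 3 bromodomain proteins. Brd2 and Brd3 belong to the BET family of bromodomain proteins. Brd1 does not: it is a scaffold of the BRPF kind that holds the acetyltransferase Kat7 in its complex, and it is counted here with the readers because it carries a bromodomain. The RNA came from mouse E14 embryonic stem cells (ESCs) in which doxycycline switches on a dead Cas9 repressor from a TetO promoter, a system known as CRISPR interference. In the 3xKD line guides sit at the start sites of pyruvate carboxylase (Pcx) and of the malic enzymes Me1 and Me2, and in the Neg line 4 scramble guides take their place. Both lines were made by transfection and hygromycin selection from a single chosen clone. The study's methods and legends say that the cells compared here were given doxycycline. Each line was sequenced in 2 states, as ESCs in naive culture and as epiblast-like cells (EpiLCs) at day 2 of induction, giving 4 groups of 3 libraries. The cell-type entries of the sample labels give ESCs for every Neg library and EpiLCs for every 3xKD library, against the sample titles. The titles and the study's methods give both states for both lines, so the titles set the groups. The study's methods describe its experiments in general as biological triplicates or more, but no source says what separated the replicates of these groups, so p-values measure the spread between these libraries, which may be technical.

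Histone acetyltransferases transfer the acetyl group of acetyl-CoA to lysines in histone tails, which loosens the chromatin fibre and creates docking sites for bromodomains. Zinc-dependent deacetylases hydrolyse the acetyl group, and sirtuins remove it while consuming NAD+, so that both directions of the reaction draw on metabolites that mitochondria and the cytosol supply. In pluripotent cells, acetylation by Ep300 and Crebbp marks active enhancers, Hdac1 and Hdac2 act inside the Sin3, NuRD and CoREST corepressor complexes, and BET proteins bind acetylated histones at transcribed genes. The comparisons ask whether transcripts of these enzymes and readers differed when Pcx, Me1 and Me2 were repressed, in each state, and whether they differed between the states.

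The promoters of 4 members that were called between the lines are shown, a pair that was lower in 3xKD (Sirt1 and Kat6b) and a pair that was higher (Hdac6 and Sirt4). Each is the 250 bases before the RefSeq start site in build GRCm38.p6, written 5′ to 3′ on the gene's strand, and capitals mark every match to one of the motifs searched, which in these 4 were the E-box CACGTG, the GC box GGGCGG and the CCAAT box CCAAT on either strand.
Sirt1: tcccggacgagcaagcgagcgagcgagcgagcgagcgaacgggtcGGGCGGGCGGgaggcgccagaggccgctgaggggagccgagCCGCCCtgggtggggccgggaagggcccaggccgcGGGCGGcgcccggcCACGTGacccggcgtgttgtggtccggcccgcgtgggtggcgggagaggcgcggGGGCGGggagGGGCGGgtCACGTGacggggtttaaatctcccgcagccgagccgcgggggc
Kat6b: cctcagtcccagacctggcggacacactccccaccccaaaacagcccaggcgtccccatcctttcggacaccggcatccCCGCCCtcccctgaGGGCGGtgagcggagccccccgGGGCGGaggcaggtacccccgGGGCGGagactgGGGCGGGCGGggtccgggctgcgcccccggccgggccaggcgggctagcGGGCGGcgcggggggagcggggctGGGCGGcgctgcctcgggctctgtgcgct
Hdac6: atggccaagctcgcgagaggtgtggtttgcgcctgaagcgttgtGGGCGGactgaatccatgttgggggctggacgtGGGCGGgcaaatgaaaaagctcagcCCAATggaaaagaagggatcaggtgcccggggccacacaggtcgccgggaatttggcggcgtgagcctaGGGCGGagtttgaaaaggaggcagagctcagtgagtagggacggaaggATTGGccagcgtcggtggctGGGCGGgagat
Sirt4: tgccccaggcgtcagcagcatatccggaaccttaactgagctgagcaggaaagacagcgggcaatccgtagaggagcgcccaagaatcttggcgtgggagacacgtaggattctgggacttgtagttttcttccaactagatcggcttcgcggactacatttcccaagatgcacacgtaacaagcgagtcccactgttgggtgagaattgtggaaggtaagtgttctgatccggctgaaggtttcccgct
The Sirt1 window lies at chr10:63339036-63339285 on the minus strand and holds 2 E-boxes and 6 GC boxes in a sequence of 79.2% G and C. Kat6b, shown for the first of its 2 listed starts, lies at chr14:21499520-21499769 on the plus strand with 8 GC boxes and 78.8% G and C. For Hdac6 the window is chrX:7947890-7948139 on the minus strand, with 4 GC boxes, 2 CCAAT boxes and 61.2% G and C. Sirt4, at chr5:115484298-115484547 on the minus strand, holds none of the motifs and has 53.2% G and C. Sirt1 was taken as the member with the largest fall in ESCs, and Kat6b as the next with more than 2 GC boxes. Hdac6 and Sirt4 were taken as members that rose and have a single listed start. GC boxes thus had a part in the choice, so the 2 pairs cannot be compared for their letters, and the 4 windows are a description only.

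RefSeq promoters were present for 28 of the 32 members, with 40 promoters in all, and Kat6a, Hdac1, Hdac3 and Hdac10 have no entry. Their median share of G and C was 61.6%, beside 52.4% over all 32851 promoters of the table. The GC box, the letters bound by Sp1, was found in 24 of the 40 member promoters (60.0%), at 22 of the 28 members, beside 32.7% of all promoters. The CCAAT box was found in 14 of them (35%), at 13 members, a share close to the 33.8% of all promoters. CACGTG, bound by Myc and its relatives, was found in 3 of the 40 promoters, those of Hat1, Kat5 and Sirt1, beside 6.02% of all promoters. The NRF1 core CGCATGCG was likewise found in 3, at Brd2, Sirt6 and Sirt7, beside 1.55% of all promoters, and the ETS motif CCGGAAGT in 3, at Hat1, Sirt3 and Sirt6, beside 2.88%. Neither the CRE TGACGTCA nor the ATF4 composite motif TGATGCAA was found in any member window, beside 1.55% and 0.791% of all promoters. All motifs were searched on both strands, no motif contains another although GC boxes can overlap each other, and a match describes letters in a window and not binding.

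Library totals ran from 11221023 to 19652197 estimated counts. The targeted genes were lower in the 3xKD line: the log2 fold change of Pcx was -1.14 in ESCs and -1.05 in EpiLCs, that of Me1 was -0.89 and -1.05, that of Me2 was -0.95 and -0.98, and their libraries did not overlap between the lines. The 8 naive markers summed to between 4157 and 4278 CPM (counts scaled by TMM and library size) in Neg ESCs and between 2923 and 2976 in 3xKD ESCs. In EpiLCs their sums went the other way between the lines, at 308.4 to 321 CPM in Neg and 398.5 to 415 in 3xKD, without overlap. The markers did not move as one there: 3 of the 8 were called higher and 1 lower. Esrrb gave the largest part of the rise, with means of 64.5 CPM in Neg and 119.6 in 3xKD. Nr0b1 fell, with means of 34.6 and 19.3 CPM. The 6 EpiLC markers summed to between 3025 and 3390 CPM in Neg EpiLCs and between 1728 and 1792 in 3xKD EpiLCs, against 259 to 293 in all ESC libraries, so the libraries carry the state their titles give. Markers of other lineages were low, with sums of at most 2.29 CPM for mesoderm, 30.1 for primitive endoderm, 52.2 for trophoblast and 70.3 for neural cells, and no marker was at 0 in every library of a group. Some of these moved with the line in EpiLCs: the 3 neural markers summed to 67.95 to 70.3 CPM in Neg and 23.3 to 27.1 in 3xKD, and the 3 trophoblast markers to 3.54 to 5.36 in Neg and 8.37 to 9.97 in 3xKD. The neural sum was mostly Sox1, with means of 65.2 and 21.6 CPM. The trophoblast sum was mostly Tfap2c, with means of 3.79 and 8.82 CPM. The lines also differed in ways the guides do not name: over the 750 tested genes of chromosome 16 the median log2 fold change was 0.31 in either state, and over the 25 of chromosome Y it was -2.59 in ESCs and -2.35 in EpiLCs. Each line was 1 transfected population, so the knockdown and any other difference between the lines cannot be told apart, and the part of these marker and chromosome differences in the results below was not tested. In bulk RNA, fewer cells that express a gene and less RNA per cell cannot be told apart.

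Levels between genes were compared per length, as TPM, in which counts are divided by transcript length and scaled to the same total in every library. By the mean over the 12 libraries, Brd2, Hat1, Kat7, Kat6b and Brd3 were the most abundant, while Hdac9, Hdac10, Hdac7, Hdac8 and Sirt4 were the least. In Neg ESCs the highest was Kat7, the catalytic subunit of the HBO1 complex, at 134 ± 32.7 TPM (SD, n = 3), followed by Brd2 at 122 ± 30.9, Kat6b at 120.5 ± 25.6 and Hat1, which acetylates newly made histone H4, at 116 ± 20.7. The lowest was Hdac9 at 0.141 ± 0.00928 TPM. The highest mean was 949-fold the lowest in Neg ESCs, 312.7-fold in 3xKD ESCs, 290.4-fold in Neg EpiLCs and 132.4-fold in 3xKD EpiLCs, with Hdac9 the lowest in every group. Hdac1 and Hdac2, the main nuclear deacetylases, stood at 61.8 ± 11.9 and 57.2 ± 11.4 TPM in Neg ESCs, while Ep300 and Crebbp stood at 32.6 ± 6.06 and 28.9 ± 4.04. Most neighbours in the order could not be separated: of the 31 neighbouring pairs, the libraries overlapped in 25 in Neg ESCs, 22 in 3xKD ESCs, 22 in Neg EpiLCs and 28 in 3xKD EpiLCs.

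The order also depended on short annotated transcripts, because Salmon gave part of some genes' TPM to transcripts under 1000 bases. Counting only transcripts of at least 1000 bases, Kat7 kept a median of 41.5% of its TPM, Brd3 38.2% and Kat6b 50.6%, whereas Hat1 kept 95.8% and Hdac2 98.7%. On that scale Hat1 ranked first at a mean of 119 TPM over the 12 libraries, followed by Brd2 at 103, Hdac2 at 52.5 and Kat7 at 52.1. Hdac9 remained last at 0.534 TPM and Hdac10 stood next to it at 0.843.

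**Figure D1:**
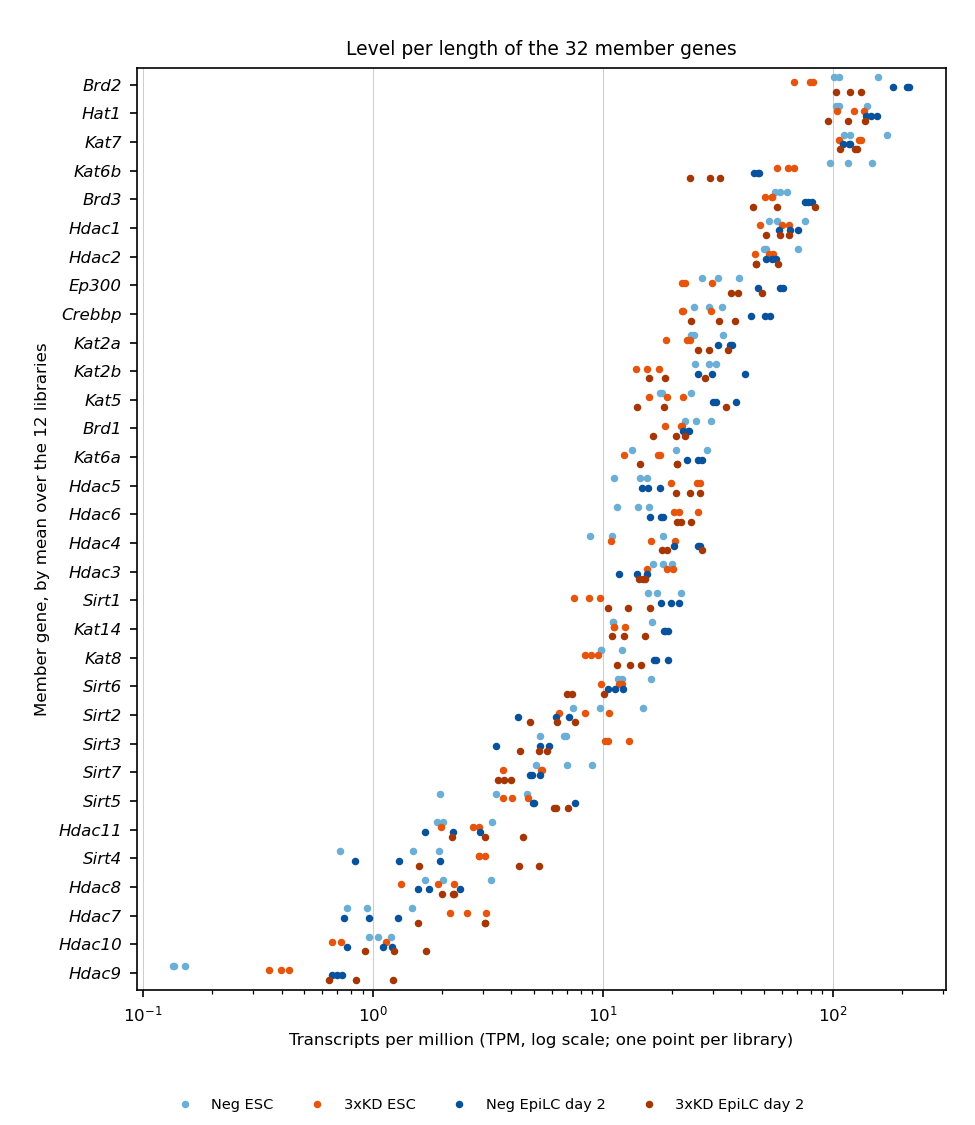
TPM of the 32 member genes on a log axis, 1 point per library, coloured by group and ordered by the mean over the 12 libraries. Brd2, Hat1 and Kat7 lie at the top and Hdac9 at the bottom, where the Neg ESC libraries lie between 0.135 and 0.152 TPM.

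From the members 8 pairs of related genes were chosen, which leave other members out. The share of each pair's TPM that came from its first gene was compared between groups as a description. The identity of the proteins over a global alignment is given beside it. Hdac1 and Hdac2 are the most alike, at 85.2% identity, and their balance hardly moved: Hdac1 held a mean of 51.9% in Neg ESCs, 52.8% in 3xKD ESCs, 54.4% in Neg EpiLCs and 53.8% in 3xKD EpiLCs. Kat2a and Kat2b, the alternative catalytic subunits of the SAGA and ATAC complexes, are 70.5% identical. Kat2a held between 46.2% and 51.8% of the pair in Neg ESCs and between 57.2% and 60.5% in 3xKD ESCs, so the libraries of the lines did not overlap. In EpiLCs the Kat2a share was 46.3% to 54.8% in Neg and 55.8% to 61.9% in 3xKD. Kat6a and Kat6b, which acetylate histone H3 in complexes with BRPF scaffolds, are 50.7% identical. Kat6a held only 12.1% to 16.0% of the pair in Neg ESCs but 34.0% to 36.4% in Neg EpiLCs, with 17.7% to 21.7% in 3xKD ESCs and 37.7% to 41.7% in 3xKD EpiLCs. The difference between the states was kept when only transcripts of at least 1000 bases were counted (means of 20.2% and 46.6% in Neg), but that between the lines was not: the mean was then 22.2% in 3xKD ESCs and 45.6% in 3xKD EpiLCs.

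Ep300 and Crebbp, the enhancer acetyltransferases, are 59.2% identical and shared their TPM almost evenly. Ep300 held 52.1% to 54.3% in Neg ESCs and 42.8% to 57.3% in 3xKD ESCs, which overlapped, and 51.8% to 53.8% in Neg EpiLCs and 54.8% to 59.9% in 3xKD EpiLCs, which did not. Brd2 and Brd3, 60.4% identical, shifted toward Brd3 in the 3xKD line: Brd2 held 61.4% to 72.7% in Neg ESCs and 57.3% to 60.1% in 3xKD ESCs, then 70.9% to 73.3% in Neg EpiLCs and 61.2% to 69.7% in 3xKD EpiLCs. Hdac4 and Hdac5 are class IIa deacetylases, which bind MEF2 factors and shuttle between nucleus and cytoplasm, and are 58.3% identical. Hdac4 held 56.6% to 64.1% of this pair in Neg EpiLCs and 44.3% to 50.5% in 3xKD EpiLCs, while in ESCs the ranges of 37.7% to 54.0% and 35.3% to 43.9% overlapped. Hdac7 and Hdac9, of the same class and 42.0% identical, differed most by state, since Hdac7 held 85.1% to 91.6% in Neg ESCs and 50.5% to 64.7% in Neg EpiLCs. Hdac6 and Hdac10, the class IIb enzymes with 24.9% identity, were nearly all Hdac6, whose mean lay between 92.7% and 96.5% in the 4 groups. The size of these shares depends on which annotated transcripts are counted. With only those of at least 1000 bases, the mean share in Neg and 3xKD was 60.7% and 69.8% in ESCs and 66.8% and 73.7% in EpiLCs for Kat2a. For Brd2 it was 80.8% and 76.04% in ESCs and 84.3% and 78.4% in EpiLCs, and for Ep300 40.3% and 39.9% in ESCs and 42.3% and 43.8% in EpiLCs.

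**Figure D2:**
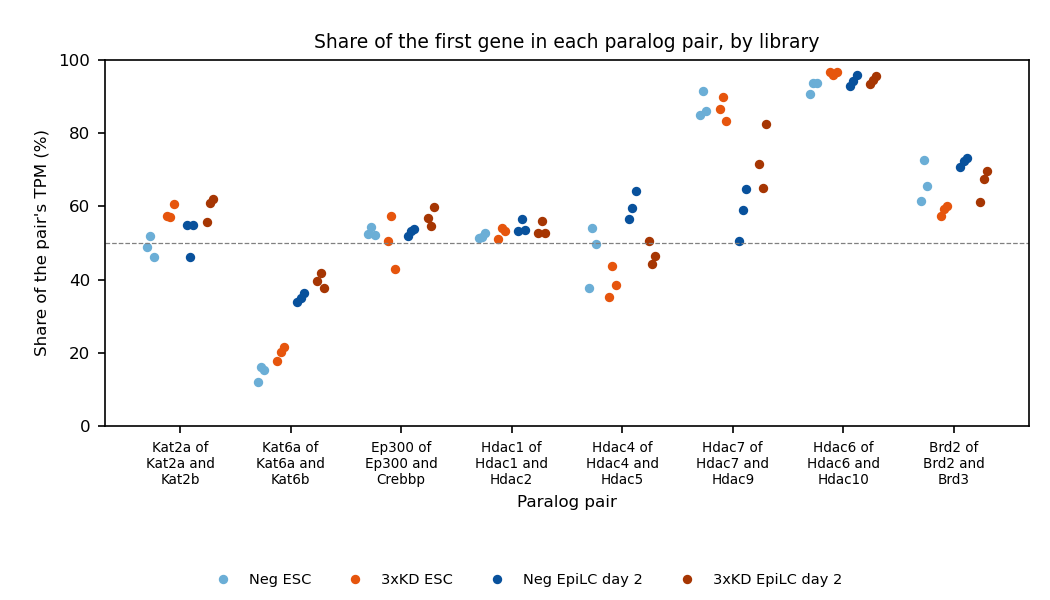
Share of the first gene in the summed TPM of each paralog pair, in percent, 1 point per library and colours by group, with a dashed line at 50. Kat6a rises from 12.1% to 16.0% in Neg ESCs to 34.0% to 36.4% in Neg EpiLCs, Hdac7 falls between the same groups, and Hdac1 stays close to the dashed line.

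In ESCs the 3xKD line had lower transcript levels of 3 acetyltransferases and Sirt1, and higher levels of 3 HDACs and 3 mitochondrial sirtuins. A gene was called where edgeR's quasi-likelihood test gave a Benjamini-Hochberg adjusted p, taken over all genes tested, under 0.01 and the log2 fold change was beyond 0.58 in either direction. So defined, 10 of 32 members were called, beside 15.3% of all genes tested and 23.6% of the 15032 well expressed genes, those averaging 1 CPM or more. Higher in 3xKD were 6 members, beside 8.50% of all genes, and lower were 4, beside 6.76%. Without the fold limit 18 members passed, 9 in each direction, beside 51.3% of well expressed genes. The libraries of the lines did not overlap for 27 members (84.4%), beside 49.0% of all genes and 68.6% of well expressed genes. In EpiLCs 5 members were called, beside 13.2% of all genes tested and 20.8% of well expressed genes. Of these 4 were higher, beside 7.88% of all genes, and 1 was lower, beside 5.35%. There 19 members passed the test without the fold limit, 6 higher and 13 lower, beside 49.1% of well expressed genes. Their libraries did not overlap for 22 members (68.8%), beside 47.2% of all genes and 66.4% of well expressed genes. The share of members called was thus 31.2% in ESCs and 15.6% in EpiLCs, above that of well expressed genes in the first and below it in the second, and the median log2 fold change of all members was -0.09 in ESCs and 0.00 in EpiLCs. The members called in both states were Hdac7 and Sirt4. The 2 comparisons use different libraries, and the values of each are given side by side below.

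**Figure D3:**
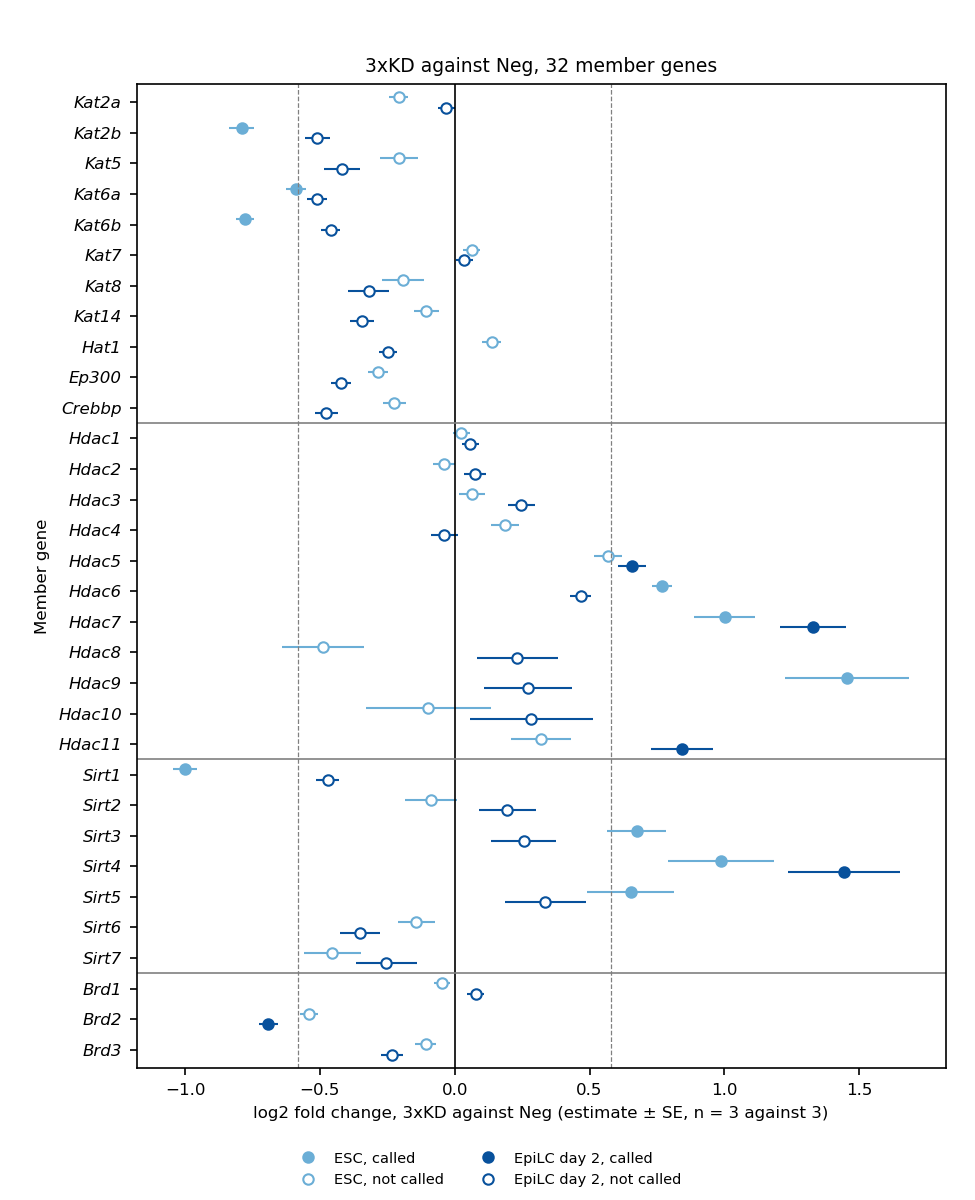
Log2 fold change of 3xKD against Neg for the 32 members in ESCs (light points) and EpiLCs (dark points), with bars of ± SE, filled where called and dashed lines at ± 0.58. Acetyltransferases lie mostly left of 0 and HDACs mostly right of it, and Hdac9 in ESCs at 1.45 and Sirt4 in EpiLCs at 1.44 lie farthest to the right.

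More acetyltransferases fell than rose in 3xKD, most of them inside the fold limit. Of 11 measured members, 6 fell and 1 rose in ESCs by the test without the fold limit, and 9 fell and none rose in EpiLCs, with Kat2a and Kat7 not passing there. With the fold limit 3 (27.3%) were called lower in ESCs and none in EpiLCs, beside 6.76% and 5.35% of all genes. In either direction 23.6% and 20.8% of well expressed genes were called. Over all genes 16.0% were lower without the fold limit in ESCs and 15.6% in EpiLCs. Of the 15032 well expressed genes, 3928 were lower and 3780 higher in ESCs, and 3888 lower and 3487 higher in EpiLCs, by the same test. The median log2 fold change of the group was -0.21 in ESCs and -0.42 in EpiLCs, beside 0.03 over all genes tested in each state. Summed over the 11 genes, the CPM lay between 2375 and 2451 in Neg ESCs and between 1880 and 1940 in 3xKD ESCs. In EpiLCs the sums were 2181 to 2280 in Neg and 1711 to 1829 in 3xKD, so neither state overlapped.

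Kat6b, at chr14:21531502-21722546 in GRCm39, had 639.6, 669.9 and 646 CPM in Neg ESCs and 393, 374 and 375 in 3xKD ESCs. Every 3xKD library lay far below every Neg library (log2 fold change -0.78 ± 0.03303 (SE), adjusted p = 2.54e-11). In EpiLCs the values were 203, 196 and 207 CPM in Neg and 149, 147 and 145 in 3xKD, again without overlap and with a smaller change (log2 fold change -0.46 ± 0.0343 (SE), adjusted p = 1.54e-08). Its relative Kat6a, at chr8:23349545-23433275, had 212, 226 and 217 CPM in Neg ESCs and 147, 140.2 and 148 in 3xKD ESCs. That decrease was just past the fold limit (log2 fold change -0.59 ± 0.0368 (SE), adjusted p = 1.76e-09) and lost its call when Neg ESC replicate 2, 3xKD ESC replicate 1 or 2, Neg EpiLC replicate 1 or 2, or 3xKD EpiLC replicate 3 was left out (log2 fold change -0.57 to -0.56), with upper-quartile factors and with transcript-length offsets, which gave a log2 fold change of -0.26 and an adjusted p of 0.23. In EpiLCs Kat6a had 227, 219 and 232 CPM in Neg and 158, 163 and 155 in 3xKD (log2 fold change -0.51 ± 0.0366 (SE), adjusted p = 9.85e-09), a change of similar size inside the fold limit. Kat2b, at chr17:53873889-53979749 and known as PCAF, had 132, 129 and 125 CPM in Neg ESCs and 74.03, 74.2 and 74.9 in 3xKD ESCs. The 3xKD libraries lay within 1 CPM of each other and well below Neg (log2 fold change -0.79 ± 0.0454 (SE), adjusted p = 6.90e-10). In EpiLCs Kat2b had 104, 106 and 108 CPM in Neg and 80.05, 73.3 and 69.2 in 3xKD (log2 fold change -0.51 ± 0.0455 (SE), adjusted p = 1.29e-07). Kat2a, known as GCN5 and at chr11:100595572-100603310, changed less than its relative, from 120.1, 123 and 123 CPM in Neg ESCs to 103, 104 and 109.8 in 3xKD ESCs (log2 fold change -0.21 ± 0.0336 (SE), adjusted p = 8.05e-05). Its EpiLC libraries held 129, 128 and 130.3 CPM in Neg and 129, 125 and 125 in 3xKD, a difference that did not pass the test (adjusted p = 0.530, 95% interval of the log2 fold change -0.11 to 0.05).

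Ep300 and Crebbp, the coactivators that acetylate enhancers, were lower in 3xKD in both states without passing the fold limit. Ep300, at chr15:81469540-81537206, had 269, 272 and 270.2 CPM in Neg ESCs and 224, 216 and 226 in 3xKD ESCs (log2 fold change -0.28 ± 0.03702 (SE), adjusted p = 8.59e-06). In EpiLCs it had 432, 417 and 425 CPM in Neg and 336, 312 and 304 in 3xKD (log2 fold change -0.42 ± 0.0364 (SE), adjusted p = 8.90e-08), so that all 3xKD libraries lay below all Neg libraries in each state. Crebbp, at chr16:3899192-4031861, had 355, 356 and 355 CPM in Neg ESCs, a spread of under 1 CPM, and 312, 293 and 308 in 3xKD ESCs (log2 fold change -0.22 ± 0.0413 (SE), adjusted p = 0.000300). Its EpiLC values were 500.0, 479.7 and 512 CPM in Neg and 379.5, 355 and 338 in 3xKD (log2 fold change -0.48 ± 0.04102 (SE), adjusted p = 8.57e-08). Crebbp lies on chromosome 16, whose genes were higher in 3xKD as a whole, and less that chromosome's median its log2 fold change in EpiLCs was -0.79. Hat1, at chr2:71218392-71271966, was the acetyltransferase whose direction differed by state: it had 247, 253 and 247 CPM in Neg ESCs and 275, 274 and 273 in 3xKD ESCs (log2 fold change 0.14 ± 0.0339 (SE), adjusted p = 0.00362), but 271, 251 and 262 in Neg EpiLCs and 226, 222 and 213 in 3xKD EpiLCs (log2 fold change -0.25 ± 0.03398 (SE), adjusted p = 1.72e-05). The rise in ESCs and the fall in EpiLCs were each free of overlap between the lines.

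The other acetyltransferases were called in no comparison. Kat5, the catalytic subunit of the Tip60 complex, had log2 fold changes of -0.21 in ESCs (adjusted p = 0.0248, edgeR) and -0.42 in EpiLCs (adjusted p = 7.43e-05). Kat8, which acetylates histone H4 in the MSL and NSL complexes, had -0.19 in ESCs and -0.32 in EpiLCs on the same scale, of which only the second passed the test (adjusted p = 0.00262). Kat14, a subunit of the ATAC complex, had -0.11 and -0.34, again passing only in EpiLCs (adjusted p = 9.38e-06). Kat7 had 0.06 and 0.04 and passed in neither state, with 95% intervals of -0.01 to 0.14 and -0.04 to 0.11.

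Among the HDACs every member that passed the test was higher in 3xKD. Of 11 members, 5 rose and none fell in ESCs by the test without the fold limit, and likewise 5 rose and none fell in EpiLCs. Over all genes 15.6% and 14.3% were higher at this limit, and of the 15032 well expressed genes 3780 and 3487. The median log2 fold change was 0.19 in ESCs and 0.27 in EpiLCs, beside 0.03 over all genes in each state. Summed CPM lay between 569 and 594 in Neg ESCs and between 673 and 686 in 3xKD ESCs, and between 518 and 533 in Neg EpiLCs and 605 and 619 in 3xKD EpiLCs. The members that rose in ESCs were the class II enzymes Hdac4, Hdac5, Hdac6, Hdac7 and Hdac9, and those that rose in EpiLCs were Hdac3, Hdac5, Hdac6, Hdac7 and Hdac11.

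Hdac6, the cytoplasmic deacetylase of tubulin, lies at chrX:7795684-7814404 and had 69.4, 73.02 and 75.5 CPM in Neg ESCs and 121, 124 and 126 in 3xKD ESCs. It was the HDAC with the smallest adjusted p in ESCs (log2 fold change 0.77 ± 0.0383 (SE), adjusted p = 1.47e-10). In EpiLCs it had 71.1, 69.6 and 71.6 CPM in Neg and 97.7, 95.6 and 100.2 in 3xKD, without overlap but inside the fold limit (log2 fold change 0.47 ± 0.0385 (SE), adjusted p = 5.15e-08). Hdac5, at chr11:102085245-102121072, had 63.6, 62.97 and 56.999 CPM in Neg ESCs and 91.7, 89.4 and 90.5 in 3xKD ESCs, just inside the fold limit (log2 fold change 0.57 ± 0.0512 (SE), adjusted p = 1.30e-07). Its EpiLC libraries held 58.4, 57.2 and 54.4 CPM in Neg and 95.3, 86.96 and 85.7 in 3xKD, and the increase was called (log2 fold change 0.66 ± 0.0512 (SE), adjusted p = 2.59e-08). Hdac7, at chr15:97687372-97742383, was called in both states. It had 5.496, 7.64 and 6.37 CPM in Neg ESCs and 13.02, 13.3 and 12.9 in 3xKD ESCs (log2 fold change 1.0010 ± 0.114 (SE), adjusted p = 1.94e-06), and 4.19, 4.09 and 3.48 in Neg EpiLCs and 9.49, 9.72 and 10.4 in 3xKD EpiLCs (log2 fold change 1.33 ± 0.122 (SE), adjusted p = 1.82e-07). The 3xKD libraries of Hdac7 lay above every Neg library of either state. Hdac4, at chr1:91855937-92123421, had 58.9, 68.1 and 64.6 CPM in Neg ESCs and 71.5, 77.1 and 69.9 in 3xKD ESCs, a small increase (log2 fold change 0.19 ± 0.0518 (SE), adjusted p = 0.00800). In EpiLCs its values of 86.04, 86.99 and 85.9 CPM in Neg and 83.2, 87.3 and 81.5 in 3xKD overlapped (adjusted p = 0.606, 95% interval of the log2 fold change -0.16 to 0.08).

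Among the rarely transcribed HDACs, Hdac9, at chr12:34097579-34967094, had the largest fold change of any member in ESCs. It had 0.6205, 0.551 and 0.765 CPM in Neg ESCs and 1.905, 1.89 and 1.63 in 3xKD ESCs (log2 fold change 1.45 ± 0.231 (SE), adjusted p = 6.90e-05), from 7 to 90 counts per library over the series. In EpiLCs its values of 3.63, 4.36 and 3.92 CPM in Neg and 5.58, 4.28 and 4.496 in 3xKD overlapped (log2 fold change 0.27 ± 0.164 (SE), adjusted p = 0.225). Hdac11, the only class IV enzyme and a remover of fatty acyl groups, lies at chr6:91133642-91151695 and had 7.09, 8.26 and 7.44 CPM in Neg ESCs and 8.48, 10.4 and 9.67 in 3xKD ESCs (log2 fold change 0.32 ± 0.111 (SE), adjusted p = 0.0300). Its EpiLC libraries were further apart, at 5.79, 4.8997 and 5.44 CPM in Neg and 9.93, 10.1 and 8.93 in 3xKD (log2 fold change 0.84 ± 0.114 (SE), adjusted p = 1.50e-05), although with transcript-length offsets the call was lost (adjusted p = 0.0422). Hdac10, a polyamine deacetylase at chr15:89007505-89013076, had 3.72, 3.03 and 2.75 CPM in Neg ESCs and 2.703, 3.96 and 2.09 in 3xKD ESCs, and 3.45, 2.95 and 2.15 and 3.72, 3.26 and 3.43 in the EpiLC groups. These overlapped, and at 32 to 65 counts per library the 95% intervals of its log2 fold change, -0.63 to 0.44 in ESCs and -0.24 to 0.81 in EpiLCs, leave changes of either sign undetectable at this depth. Hdac8, a class I enzyme that deacetylates cohesin, had log2 fold changes of -0.49 in ESCs (adjusted p = 0.0168, edgeR) and 0.23 in EpiLCs (adjusted p = 0.264).

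Hdac1, Hdac2 and Hdac3 are the catalytic subunits of the main nuclear corepressors. Hdac1, at chr4:129409895-129436631, had 151, 153 and 152 CPM in Neg ESCs and 152, 156 and 156 in 3xKD ESCs, and 136, 132 and 132 in Neg EpiLCs and 135, 138 and 143 in 3xKD EpiLCs. Its 95% intervals of -0.05 to 0.10 and -0.02 to 0.13 on the log2 scale do not reach the changes of Kat6b or Hdac6. Hdac2, at chr10:36850435-36877890, had 157, 164 and 158 CPM in Neg ESCs and 158, 154 and 152 in 3xKD ESCs, and 131, 121 and 127 and 132, 126 and 140.5 in the EpiLC groups, with intervals of -0.14 to 0.05 and -0.02 to 0.17. Neither gene passed the test in either state. Hdac3, the enzyme of the NCoR and SMRT complexes, had 47.1, 47.97 and 48.7 CPM in Neg ESCs and 51.2, 51.03 and 48.3 in 3xKD ESCs (log2 fold change 0.07 ± 0.0485 (SE), adjusted p = 0.324), and 29.1, 30.9 and 31.98 in Neg EpiLCs and 35.99, 37.7 and 35.5 in 3xKD EpiLCs (log2 fold change 0.25 ± 0.0509 (SE), adjusted p = 0.000846). Only its EpiLC increase passed the test, inside the fold limit.

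**Figure D4:**
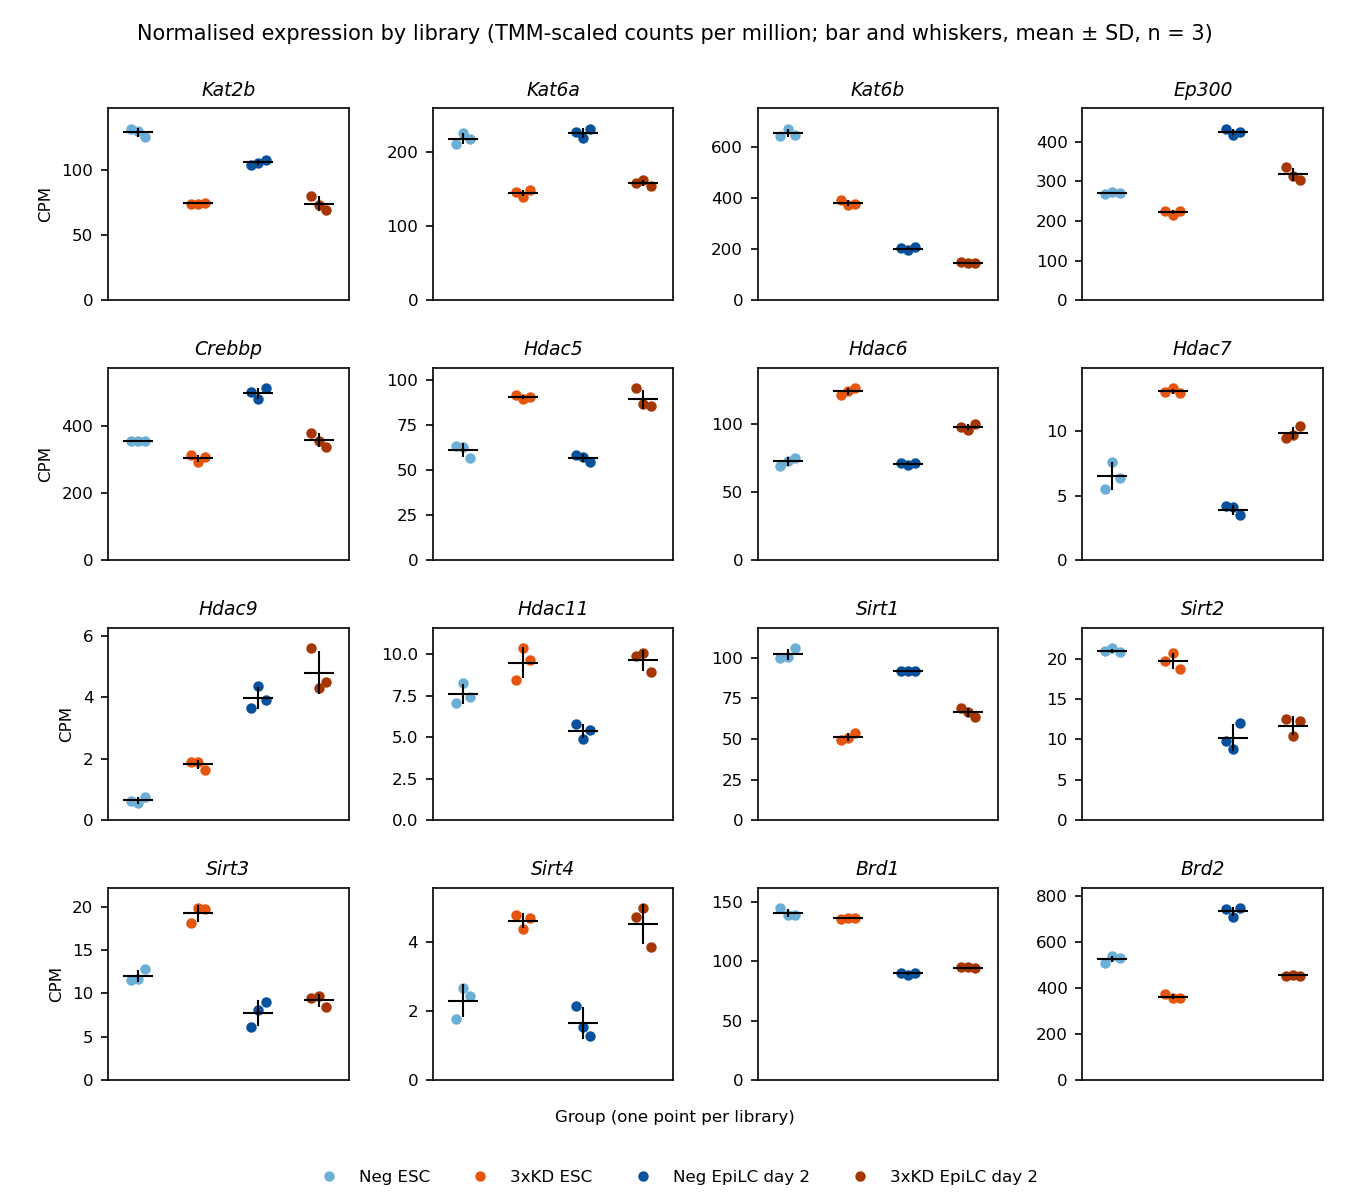
CPM of 16 members in each library, 1 point per library with a bar and whiskers for the mean ± SD (n = 3) and colours by group, each panel on its own axis from 0. The 3xKD points lie below the Neg points of the same state for Kat2b, Kat6b, Sirt1 and Brd2, and above them for Hdac5, Hdac6, Hdac7 and Sirt4.

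Sirtuins changed in both directions in ESCs, and fewer passed in EpiLCs. In ESCs the 3 mitochondrial members Sirt3, Sirt4 and Sirt5 were called higher, Sirt1 was called lower, and Sirt7 fell inside the fold limit, so that 3 of 7 rose and 2 fell by the test without the fold limit, beside 15.6% and 16.0% of all genes. In EpiLCs 1 of 7, Sirt4, rose and 2, Sirt1 and Sirt6, fell at that limit, beside 14.3% and 15.6%. Of the 15032 well expressed genes, 3780 rose and 3928 fell in ESCs, and 3487 rose and 3888 fell in EpiLCs. The group median was -0.09 in ESCs and 0.20 in EpiLCs. Summed CPM, to which Sirt1 gave the largest part, were lower in 3xKD, at 136 to 142 against 182 to 194 in Neg ESCs and 119 to 129 against 143 to 153 in Neg EpiLCs.

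Sirt1, the nuclear deacetylase of histones and p53, lies at chr10:63154581-63217483 and had 100.2, 100.3 and 106 CPM in Neg ESCs and 49.3, 50.4 and 53.7 in 3xKD ESCs. No other member fell as much in ESCs (log2 fold change -0.9998 ± 0.0438 (SE), adjusted p = 3.47e-11). In EpiLCs it had 92.1, 92.2 and 92.03 CPM in Neg and 69.2, 66.4 and 63.8 in 3xKD, again without overlap (log2 fold change -0.47 ± 0.04299 (SE), adjusted p = 1.65e-07). Sirt3, the main mitochondrial deacetylase, at chr7:140443577-140462311, had 11.5, 11.7 and 12.7 CPM in Neg ESCs and 18.1, 19.8 and 19.7 in 3xKD ESCs (log2 fold change 0.67 ± 0.1102 (SE), adjusted p = 9.21e-05). Its EpiLC values of 6.098, 8.05 and 8.98 CPM in Neg and 9.49, 9.72 and 8.37 in 3xKD overlapped (log2 fold change 0.26 ± 0.121 (SE), adjusted p = 0.114). Sirt4, at chr5:115616065-115622784, a mitochondrial sirtuin known to restrain glutamate dehydrogenase, had 1.77, 2.68 and 2.45 CPM in Neg ESCs and 4.79, 4.39 and 4.704 in 3xKD ESCs (log2 fold change 0.99 ± 0.198 (SE), adjusted p = 0.000637). It had 2.16, 1.54 and 1.26 CPM in Neg EpiLCs and 4.72, 4.99 and 3.87 in 3xKD EpiLCs (log2 fold change 1.44 ± 0.206 (SE), adjusted p = 2.50e-05). With 20 to 78 counts per library this was the largest change of any member in EpiLCs, and with transcript-length offsets both Sirt4 calls were lost (adjusted p = 0.0426 in ESCs and 0.0196 in EpiLCs). Sirt5, at chr13:43518856-43550487, which removes succinyl and malonyl groups, had 3.72, 2.82 and 2.75 CPM in Neg ESCs and 5.04, 5.06 and 4.31 in 3xKD ESCs (log2 fold change 0.65 ± 0.161 (SE), adjusted p = 0.00342). This call, from 41 to 100 counts per library, was lost with DESeq2 (adjusted p = 0.0155), with transcript-length offsets (adjusted p = 0.151), with only the ESC groups fitted (adjusted p = 0.0101) and when Neg ESC replicate 2 or 3 or 3xKD ESC replicate 1 or 2 was left out (adjusted p = 0.0104 to 0.0237). In EpiLCs Sirt5 had 4.62, 3.89 and 4.74 CPM in Neg and 6.21, 4.92 and 5.62 in 3xKD (log2 fold change 0.34 ± 0.151 (SE), adjusted p = 0.0951).

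The remaining sirtuins were not called between the lines. Sirt6, a chromatin deacetylase, lies at chr10:81455262-81463631 and had 30.3, 32.1 and 31.2 CPM in Neg ESCs and 28.1, 28.5 and 28.2 in 3xKD ESCs (log2 fold change -0.14 ± 0.06901 (SE), adjusted p = 0.118). It had 24.1, 20.1 and 23.6 CPM in Neg EpiLCs and 18.99, 17.01 and 17.2 in 3xKD EpiLCs, where the decrease passed the test inside the fold limit (log2 fold change -0.35 ± 0.0729 (SE), adjusted p = 0.000917). Sirt7, the nucleolar member, lies at chr11:120509197-120516066 and had 13.6, 16.9 and 17.8 CPM in Neg ESCs and 10.8, 12.3 and 12.4 in 3xKD ESCs (log2 fold change -0.45 ± 0.105 (SE), adjusted p = 0.00220). Its EpiLC values were 9.61, 8.86 and 10.5 CPM in Neg and 7.82, 8.57 and 7.93 in 3xKD (log2 fold change -0.25 ± 0.113 (SE), adjusted p = 0.0940). Sirt2, a cytoplasmic tubulin deacetylase at chr7:28466160-28488090, had 20.9, 21.3 and 20.8 CPM in Neg ESCs and 19.7, 20.7 and 18.7 in 3xKD ESCs, and 9.85, 8.79 and 12.01 in Neg EpiLCs and 12.5, 10.4 and 12.2 in 3xKD EpiLCs. Sirt2 did not pass between the lines in either state (adjusted p = 0.518 and 0.172, edgeR).

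Of the bromodomain proteins, Brd2 fell in both states and was the member with the lowest log2 fold change in EpiLCs. Brd2, at chr17:34330996-34341745, had 509, 537 and 528 CPM in Neg ESCs and 373, 356 and 354 in 3xKD ESCs, a decrease just inside the fold limit (log2 fold change -0.54 ± 0.0339 (SE), adjusted p = 1.93e-09) that passed it once the median of chromosome 17 was taken off (-0.60). In EpiLCs it had 742, 708 and 746 CPM in Neg and 453, 455 and 452 in 3xKD, and the decrease was called (log2 fold change -0.69 ± 0.0338 (SE), adjusted p = 1.32e-10). Every 3xKD library, whatever its state, lay below every Neg library for this gene. Brd3, at chr2:27335587-27397674, had 158, 166 and 157 CPM in Neg ESCs and 149, 147 and 150.3 in 3xKD ESCs (log2 fold change -0.11 ± 0.0404 (SE), adjusted p = 0.0427), and 189.6, 179 and 186 in Neg EpiLCs and 166, 149 and 157 in 3xKD EpiLCs (log2 fold change -0.23 ± 0.0401 (SE), adjusted p = 0.000168). Its EpiLC decrease passed the test at a smaller size than that of Brd2. Brd1, at chr15:88571232-88618518, had 144, 138 and 139 CPM in Neg ESCs and 135, 136 and 137 in 3xKD ESCs, and 90.4, 88.5 and 89.8 and 94.8, 94.8 and 94.1 in the EpiLC groups. It did not pass in either state, with 95% intervals of the log2 fold change of -0.12 to 0.02 and 0.01 to 0.15.

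Between the states, Kat6b fell and Hdac9 rose in both lines, and most sirtuins that passed the test were lower in EpiLCs. In the Neg line 9 of 32 members were called, beside 20.8% of all genes tested and 30.7% of well expressed genes. Higher in EpiLCs were 2, beside 9.78% of all genes, and lower were 7, beside 11%. That split was 3 higher and 4 lower with upper-quartile factors, and 2 and 4 with transcript-length offsets. In the 3xKD line 5 were called, beside 18.7% of all genes and 27.9% of well expressed genes, 1 of them higher, beside 9.42%, and 4 lower, beside 9.32%. Without the fold limit 23 members passed in each line, beside 55.9% of well expressed genes in Neg and 53.4% in 3xKD. In Neg 9 were higher and 14 lower, beside 17.5% and 18.2% of all genes, and in 3xKD 10 were higher and 13 lower, beside 15.9% and 17.9%. Of the 15032 well expressed genes, 4051 were higher and 4346 lower in Neg, and 3702 higher and 4327 lower in 3xKD. In both lines 51.7% of all genes and 70% of well expressed genes did not overlap between the states, against 25 members (78.1%) in Neg and 24 (75%) in 3xKD. The genes called in both lines were Kat6b, Hdac9, Sirt2 and Sirt3.

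By kind, 5 of 11 acetyltransferases rose and 3 fell in Neg, and 6 rose and 3 fell in 3xKD, by the test without the fold limit. In all 72.7% passed in Neg and 81.8% in 3xKD, beside 55.9% and 53.4% of well expressed genes. Kat6b had the largest decrease of any member, from 652 ± 16.03 CPM (SD, n = 3) in Neg ESCs to 202 ± 5.44 in Neg EpiLCs (log2 fold change -1.69 ± 0.03403 (SE), adjusted p = 3.04e-16), and fell in 3xKD as well (log2 fold change -1.37 ± 0.0342 (SE), adjusted p = 7.52e-15). Ep300 rose in Neg (log2 fold change 0.65 ± 0.0367 (SE), adjusted p = 1.96e-10), a call lost with transcript-length offsets (log2 fold change 0.55), and in 3xKD its increase was inside the fold limit (log2 fold change 0.51 ± 0.0369 (SE), adjusted p = 5.53e-09). The Neg EpiLC libraries of Ep300 and Crebbp lay above the libraries of every other group. Crebbp rose inside the fold limit in Neg (log2 fold change 0.48 ± 0.0411 (SE), adjusted p = 3.73e-08) and in 3xKD (log2 fold change 0.23 ± 0.0412 (SE), adjusted p = 0.000191). Of 11 HDACs, 2 rose and 5 fell in each line, which is 63.6%, beside 55.9% of well expressed genes in Neg and 53.4% in 3xKD. Hdac9 rose from under 1 CPM in every Neg ESC library to at least 3.63 CPM in every Neg EpiLC library (log2 fold change 2.58 ± 0.213 (SE), adjusted p = 2.59e-08), with a smaller increase in 3xKD (log2 fold change 1.40 ± 0.178 (SE), adjusted p = 5.70e-06). Hdac3 fell in Neg (log2 fold change -0.65 ± 0.0503 (SE), adjusted p = 1.27e-08), a call that was lost without Neg EpiLC replicate 1 (log2 fold change -0.57) and with upper-quartile factors (-0.56). Hdac7 fell in Neg too (log2 fold change -0.74 ± 0.128 (SE), adjusted p = 0.000138), and this call was lost with transcript-length offsets (adjusted p = 0.441). In 3xKD neither passed the fold limit, with log2 fold changes of -0.46 for Hdac3 and -0.41 for Hdac7.

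Of the 7 sirtuins, 5 fell in Neg and none rose, while 4 fell and 1 rose in 3xKD, by the test without the fold limit. The share that passed was 71.4% in each line, beside 55.9% of well expressed genes in Neg and 53.4% in 3xKD. Sirt2 showed the largest decrease of them in Neg (log2 fold change -1.04 ± 0.102 (SE), adjusted p = 2.40e-07) and fell in 3xKD (log2 fold change -0.75 ± 0.1003 (SE), adjusted p = 9.88e-06), where the call was lost with transcript-length offsets (adjusted p = 0.0717). Sirt3 fell in Neg (log2 fold change -0.64 ± 0.119 (SE), adjusted p = 0.000254) and in 3xKD (log2 fold change -1.06 ± 0.112 (SE), adjusted p = 6.71e-07). Its Neg call was lost without Neg EpiLC replicate 1 (log2 fold change -0.46), with upper-quartile factors (-0.56) and with transcript-length offsets (adjusted p = 0.0114). Sirt7 was called lower in Neg only (log2 fold change -0.75 ± 0.108 (SE), adjusted p = 1.96e-05), with -0.55 in 3xKD. Sirt6 was called lower in 3xKD only (log2 fold change -0.67 ± 0.0717 (SE), adjusted p = 7.64e-07), with -0.46 in Neg. For neither did the difference between the lines pass its test (adjusted p = 0.464 for Sirt7 and 0.196 for Sirt6). Among the bromodomain proteins, Brd1 fell in Neg (log2 fold change -0.65 ± 0.0313 (SE), adjusted p = 2.50e-11) and inside the fold limit in 3xKD (log2 fold change -0.52 ± 0.0311 (SE), adjusted p = 4.96e-10). The Neg call of Brd1 was lost with upper-quartile factors (log2 fold change -0.57) and with transcript-length offsets (-0.38). Brd2 rose in Neg (log2 fold change 0.48 ± 0.0337 (SE), adjusted p = 3.37e-09) and in 3xKD (log2 fold change 0.33 ± 0.0339 (SE), adjusted p = 4.99e-07) inside that limit.

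**Figure D5:**
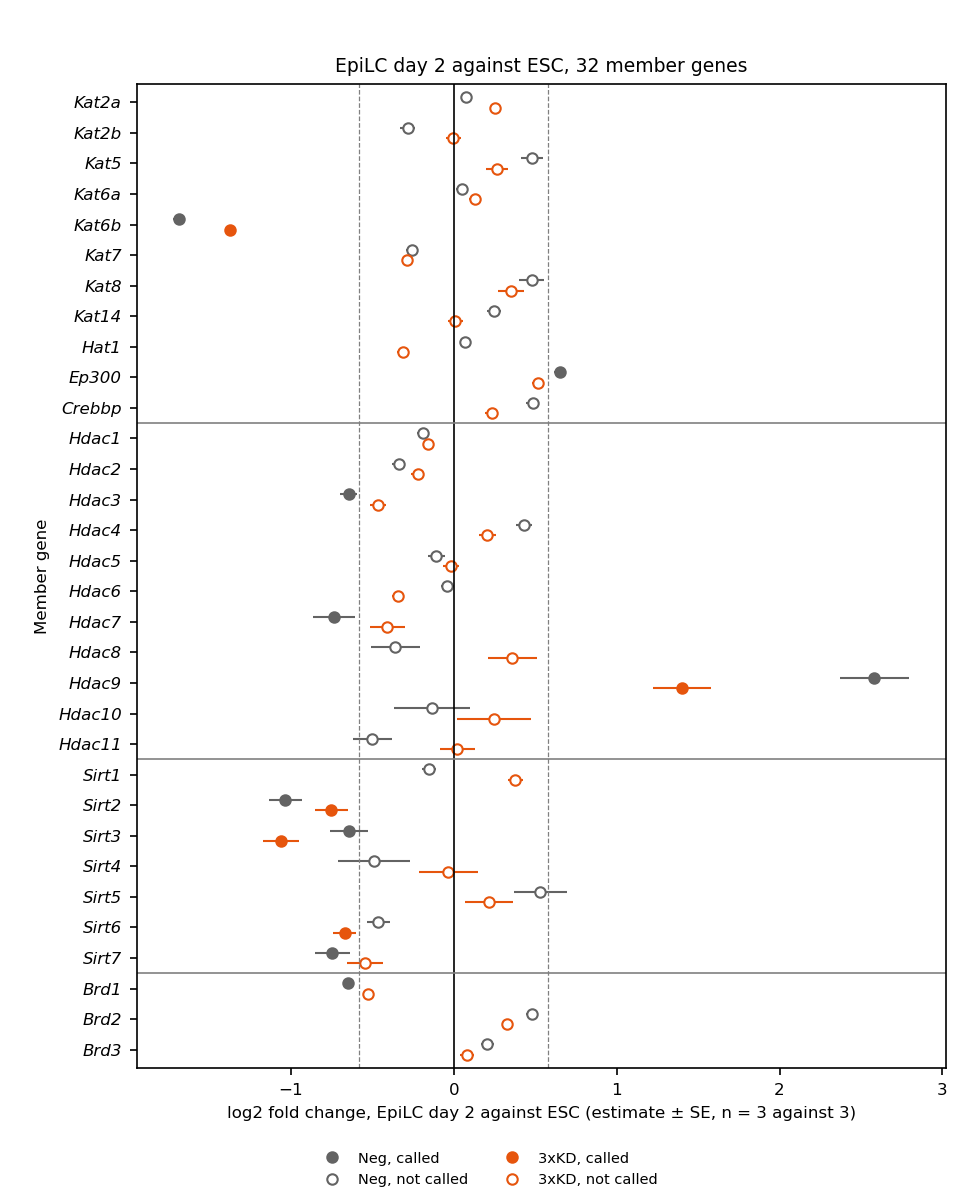
Log2 fold change of EpiLCs day 2 against ESCs for the 32 members in Neg (grey) and 3xKD (orange), with bars of ± SE, filled where called and dashed lines at ± 0.58. Kat6b lies at -1.69 in Neg and -1.37 in 3xKD, and Hdac9 at 2.58 and 1.40, far from the other members.

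Whether the difference between the lines itself changed with the state was tested as the interaction, which is also the difference between the lines in the transition. At an adjusted p under 0.01 with no fold limit, 7 of 32 members passed, beside 10% of all genes tested and 16.8% of well expressed genes. The difference was positive for 3, beside 4.76% of all genes, and negative for 4, beside 5.27%. Positive values mean that the log2 fold change of 3xKD against Neg was higher in EpiLCs than in ESCs. Sirt1 had the smallest adjusted p, and its decrease was smaller in EpiLCs (difference 0.53 ± 0.0612 (SE), adjusted p = 1.33e-05). Kat6b (difference 0.32 ± 0.0475 (SE), adjusted p = 0.000167) and Kat2b (difference 0.28 ± 0.0641 (SE), adjusted p = 0.00568) likewise fell less in EpiLCs than in ESCs. Hat1 rose in ESCs and fell in EpiLCs (difference -0.38 ± 0.047998 (SE), adjusted p = 2.94e-05), the only one of the 7 with opposite directions that each passed the test. Crebbp fell further in EpiLCs (difference -0.25 ± 0.0582 (SE), adjusted p = 0.00608). Hdac6 rose less in EpiLCs than in ESCs (difference -0.30 ± 0.0543 (SE), adjusted p = 0.000852). Hdac9 rose in ESCs and had overlapping libraries in EpiLCs (difference -1.18 ± 0.285 (SE), adjusted p = 0.00818), and this difference lost its call when any library other than Neg EpiLC replicate 1 and 3xKD EpiLC replicate 1 was left out (adjusted p = 0.0102 to 0.0274) and under 5 other alternatives, among them DESeq2 (adjusted p = 0.0471). The Kat2b difference lost its call when any library other than replicate 3 of Neg ESCs, Neg EpiLCs or 3xKD EpiLCs was left out (adjusted p = 0.0106 to 0.0195). The Crebbp difference lost it without Neg ESC replicate 1, 2 or 3, 3xKD ESC replicate 3, Neg EpiLC replicate 3 or 3xKD EpiLC replicate 2 (adjusted p = 0.0134 to 0.0210). With transcript-length offsets only the differences of Hat1 and Sirt1 kept their call. Members such as Hdac7, Sirt4 and Brd2, which were called in 1 or both states, did not pass this test (adjusted p = 0.228, 0.348 and 0.0405).

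The genes that work with these enzymes were counted from lists of complex subunits and readers. Of 45 subunits of acetyltransferase complexes, 29 fell and 5 rose in ESCs and 30 fell and 3 rose in EpiLCs without the fold limit. Over all genes 16.0% and 15.6% were lower, and of the 15032 well expressed genes 3928 and 3888. With the fold limit 7 and 8 of the subunits were lower and none higher, beside 6.76% and 5.35% of all genes called lower. The share of subunits called was 15.6% in ESCs and 17.8% in EpiLCs, below the 23.6% and 20.8% of well expressed genes called in either direction. Jade2, a scaffold of the HBO1 complex, was the subunit with the largest decrease in both states (log2 fold change -1.07 ± 0.0551 (SE), adjusted p = 2.06e-10 in ESCs and log2 fold change -1.02 ± 0.0428 (SE), adjusted p = 2.83e-11 in EpiLCs). Tada1, a SAGA subunit, followed in ESCs (log2 fold change -1.0009 ± 0.135 (SE), adjusted p = 1.28e-05) and Epc2, of the Tip60 complex, in EpiLCs (log2 fold change -0.82 ± 0.0502 (SE), adjusted p = 1.55e-09). Their median log2 fold change was -0.26 in ESCs and -0.27 in EpiLCs, beside 0.03 over all genes in each state. Of 34 subunits of deacetylase corepressors, 12 fell and 9 rose in ESCs, and 15 fell and 6 rose in EpiLCs. That is 61.8% in each state, beside 51.3% and 49.1% of well expressed genes. With the fold limit 11.8% were called in each state, fewer than the 23.6% and 20.8% of well expressed genes. Mta3, of the NuRD complex, was called higher in ESCs (log2 fold change 0.61 ± 0.0584 (SE), adjusted p = 2.76e-07), while Gps2, of the NCoR complex, was called lower (log2 fold change -0.92 ± 0.105 (SE), adjusted p = 1.82e-06), as was Brms1, of the Sin3 complex (log2 fold change -0.86 ± 0.0892 (SE), adjusted p = 6.66e-07). In EpiLCs Tbl1xr1, which belongs to the NCoR complex, was called lower (log2 fold change -0.82 ± 0.0344 (SE), adjusted p = 2.79e-11), as was Trerf1 (log2 fold change -0.75 ± 0.0539 (SE), adjusted p = 1.07e-08). Of 24 other readers of acetylated lysine, 7 rose and 10 fell in ESCs and 4 rose and 13 fell in EpiLCs. That is 70.8% in each state, but with the fold limit only 8.33% and 4.17% were called, again fewer than among well expressed genes. Dpf1, a subunit of neuronal BAF complexes, and Brwd3 were called higher in ESCs (0.66 and 0.59), and Zmynd11 was called lower in EpiLCs (-0.63), all as log2 fold changes. In the transition Jade2 rose in both lines (2.12 in Neg and 2.17 in 3xKD), and Bptf, the reader of the NURF remodeller, rose as well (1.21 and 0.95). Lower in EpiLCs of both lines were Tada1 (-1.34 in Neg and -1.13 in 3xKD), Sap30, a subunit of the Sin3 complex (-1.08 and -0.77), and the bromodomain genes Baz2b (-0.93 and -0.58) and Atad2b (-0.71 and -0.89). Trerf1 rose in Neg (1.53), and its difference between the lines in this transition passed the test (difference -1.19, adjusted p = 2.89e-08, edgeR), as did that of Tbl1xr1 (difference -0.54, adjusted p = 1.00e-06).

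Called in none of the 5 comparisons were Brd3, Hdac1, Hdac2, Hdac4, Hdac8, Hdac10, Kat2a, Kat5, Kat7, Kat8 and Kat14. Only Hdac8 and Hdac10 failed the test without a fold limit in all 4 comparisons between groups.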

How the data were processed

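RNA from 12 libraries (4 groups, 3 libraries each) was depleted of ribosomal RNA and sequenced single-end from directional libraries, according to the study's methods, whereas the molecule field of the labels gives polyadenylated RNA. The authors trimmed reads with Trim Galore 0.6.7, mapped them to GRCm39 (Ensembl) with STAR 2.7.9a and quantified 149132 transcripts with Salmon 1.10.1. The deposited tables hold estimated counts, which the authors did not normalize, and TPM, in which the authors' quantifier took effective transcript length and library total into account. Every per-sample value column was used or is a transcript length (columns left unused: 0).

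Per gene, estimated counts were added up and rounded. Genes with 10 or more counts in all were scaled by TMM and tested in 1 edgeR 4.0.16 quasi-likelihood fit of the 4 groups (R 4.3.3), with 8 residual degrees of freedom. A call needed an adjusted p under 0.01 and, outside the interaction, an absolute log2 value over 0.58. The SE is the size of the log2 fold change divided by the square root of F. Only 7 to 90 counts per library stood behind Hdac9, and 20 to 100 behind Sirt4, Sirt5 and Hdac10, so these are the least precise members.

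The members and lists were chosen with earlier results of these data known. Library values are given for members called in at least 1 comparison and for paralog pairs, and the genes named from other lists are drawn from the 2 called genes with the largest change in each direction among genes averaging 1 CPM. Gene positions come from GENCODE vM39, which matched 99.0% of the genes. Promoters come from RefSeq (GRCm38.p6). Protein identity was computed from coding sequences of the annotation (Biopython 1.88). Overlapping and antisense genes could be mixed where counting did not use strand, which is not given in the sources used here.

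On simulated data with 100 genes changed by 1 on the log2 scale and 100 by 2, the fit recovered 75% and 94% for 3xKD against Neg in ESCs, 80% and 98% in EpiLCs, 81% and 95% for the Neg transition, 73% and 93% for the 3xKD transition and 63% and 91% for the interaction, with 4 or 5 calls on unchanged genes. Alternatives were DESeq2 1.42.0, other scaling factors and filters, transcript-length offsets, robust estimation, a block for the replicate number, the compared groups alone, chromosome medians taken off, other limits and each library left out in turn.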

Additional observations from a re-analysis of the deposited data

Results flagged for a closer look

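These 7 of 32 members (21.9%) passed the test for a different response to the 3xKD line in the 2 states, the interaction term of edgeR's quasi-likelihood fit. The share was 10% of all genes tested and 16.8% of well expressed genes. Of 22 alternatives, 15 lost the call of Hdac9, 10 that of Kat2b and 8 that of Crebbp. With transcript-length offsets only Hat1 and Sirt1 kept theirs. Each member is given with the difference (EpiLCs less ESCs, log2 scale) beside the change in each state. Hat1 went in opposite directions, 0.14 in ESCs and -0.25 in EpiLCs (difference -0.38). Sirt1 was lower by more in ESCs, -0.9998 against -0.47 (difference 0.53), as were Kat6b, -0.78 against -0.46 (difference 0.32), and Kat2b, -0.79 against -0.51 (difference 0.28). Crebbp was lower by more in EpiLCs, -0.48 against -0.22 in ESCs (difference -0.25). Hdac6 was higher by more in ESCs, 0.77 against 0.47 (difference -0.30). Hdac9 was higher in ESCs at 1.45 and did not pass the test in EpiLCs at 0.27 (difference -1.18). In the same libraries the EpiLC markers of 3xKD EpiLCs summed to 1728 to 1792 CPM against 3025 to 3390 in Neg EpiLCs, and their part in these differences was not tested.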

How the results depend on the processing

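No member that passed the test changed sign under any alternative. The counts depended on the limits. With no fold limit, 22 members passed an adjusted p of 0.05 and 18 one of 0.01 in ESCs, 19 and 19 in EpiLCs, 24 and 23 in the Neg transition and 23 and 23 in the 3xKD transition, and 13 differences between states passed 0.05. With a log2 limit of 1 the counts were 2 in ESCs, 2 in EpiLCs, 3 in each transition and 1 for the interaction. With transcript-length offsets 3 of 5 EpiLC calls and 2 of 7 interaction calls were counted, and the cause was not tested. Leaving out each library in turn gave 8 to 11 calls in ESCs, 5 to 5 in EpiLCs, 7 to 10 in the Neg transition, 5 to 6 in the 3xKD transition and 4 to 7 for the interaction, with 4 without Neg ESC replicate 1 and without 3xKD EpiLC replicate 2. Hdac5 in ESCs gained its call with transcript-length offsets (log2 fold change 0.92). It also gained its call with upper-quartile factors and when Neg ESC replicate 1 or 2, 3xKD ESC replicate 1, Neg EpiLC replicate 1 or 2, or 3xKD EpiLC replicate 3 was left out (0.59 to 0.60). Sirt5 gained a call in the Neg transition without Neg ESC replicate 1 (0.67) or Neg EpiLC replicate 2 (0.65), and Sirt7 in the 3xKD transition without 3xKD ESC replicate 1 (-0.60) or 3xKD EpiLC replicate 2 (-0.59). Differences between states were gained for Kat2a without 3xKD ESC replicate 3, Kat14 without Neg ESC replicate 2 or Neg EpiLC replicate 2, Hdac8 without Neg EpiLC replicate 3, Sirt3 without Neg EpiLC replicate 1 and Brd2 without Neg EpiLC replicate 2. With library size alone as the scale, 64.9% of all interaction calls were positive against 47.4%, and the calls of Crebbp, Hdac6 and Hdac9 were lost. Replicate numbers did not pair the libraries: the correlation of deviations between same-numbered libraries lay between -0.135 and 0.101 over 18 pairs, with 1 above 0.1. With the replicate block 10 members were called in ESCs, 5 in EpiLCs, 9 and 5 in the transitions and 6 for the interaction, where Hdac9 lost its call (adjusted p = 0.0163). Depth limits Hdac8, Hdac9, Hdac10, Sirt4 and Sirt5 most.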

Other observations

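Genes that supply the substrates of these enzymes were counted as well. Of 20 genes of acetyl-CoA supply, 13 were higher and 2 lower in 3xKD ESCs, and 10 higher and 1 lower in 3xKD EpiLCs, at an adjusted p under 0.01 by edgeR. Over all genes 15.6% and 14.3% were higher, and of the 15032 well expressed genes 3780 and 3487. The median log2 fold change of the 20 supply genes was 0.28 in ESCs and 0.27 in EpiLCs, beside 0.03 over all genes in each state. Idh2, the mitochondrial isocitrate dehydrogenase, rose in ESCs (log2 fold change 1.09 ± 0.0601 (SE), adjusted p = 4.25e-10) and further in EpiLCs (log2 fold change 1.70 ± 0.0712 (SE), adjusted p = 2.79e-11). Mlycd, which turns malonyl-CoA into acetyl-CoA, rose in ESCs (log2 fold change 1.102 ± 0.0553 (SE), adjusted p = 1.58e-10) and EpiLCs (log2 fold change 1.15 ± 0.0541 (SE), adjusted p = 8.91e-11). Slc33a1, the acetyl-CoA transporter of the endoplasmic reticulum, fell in both (log2 fold change -0.64 ± 0.0708 (SE), adjusted p = 1.40e-06 in ESCs and log2 fold change -0.63 ± 0.0706 (SE), adjusted p = 1.89e-06 in EpiLCs). Acss1, a mitochondrial acetyl-CoA synthetase, fell between the states (-3.18 in Neg and -2.40 in 3xKD, log2 scale), with a difference between the lines of 0.78.

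Of 23 genes of NAD synthesis and use, 21 were tested. At the same limit 10 were higher and 5 lower in 3xKD ESCs, and 9 higher and 4 lower in 3xKD EpiLCs. That is 71.4% and 61.9%, beside 51.3% and 49.1% of well expressed genes. Qprt, which makes nicotinic acid mononucleotide, was the one with the largest increase in ESCs among the well expressed genes (log2 fold change 1.28 ± 0.1501 (SE), adjusted p = 2.69e-06), followed by Nmnat2 (log2 fold change 1.02 ± 0.0725 (SE), adjusted p = 8.42e-09). In EpiLCs the largest were Nadsyn1 (log2 fold change 1.46 ± 0.147 (SE), adjusted p = 5.04e-07) and Naprt (log2 fold change 1.17 ± 0.153 (SE), adjusted p = 1.04e-05), both of the pathway from nicotinic acid. Cd38, an enzyme that consumes NAD, fell in ESCs (log2 fold change -0.66 ± 0.123 (SE), adjusted p = 0.000338), as did Nmnat1 (log2 fold change -0.62 ± 0.119 (SE), adjusted p = 0.000432), and fell between the states in both lines (-3.52 in Neg and -3.28 in 3xKD, log2 scale). Bst1, a related NAD-consuming enzyme, fell between the states as well (-4.19 and -3.78, log2 scale). Ctbp2, a corepressor that binds NAD, was lower in 3xKD EpiLCs (log2 fold change -0.62 ± 0.0338 (SE), adjusted p = 4.71e-10).

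The 3 targeting guides of 19 bases were compared with 1000 bases on either side of the members' starts, and the fewest mismatches beside an NGG was 3, at Hdac5. An annotated Kat6a transcript of 419 bases was estimated at 0 in Neg ESC replicate 1 and at 24.7% to 43.9% of the gene's TPM in every other library.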
